A study of Mus musculus with 8 samples.

Results

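MiR-126 is a microRNA of the endothelium, and its 4 mature forms on the array were followed by name: miR-126a-3p, miR-126a-5p, miR-126b-5p and miR-126b-3p, out of 1881 mouse miRNAs that the array probes. All 4 were found, each with 2 probes of 15 spots, and 2 of the 4, both arms of miR-126a, were well above background on all 8 arrays. The samples were 4 whole kidney samples of male Akita mice (strain C57BL/6-Ins2Akita/J) and 4 of male C57BL/6J control mice, with 1 one-colour array per sample. The labels give an age of 36 without a unit for all 8. The titles call the controls Mock, and the labels do not explain the word. The Akita allele is a dominant mutation of Ins2 that makes proinsulin misfold in pancreatic beta cells, so that the kidney is exposed to diabetes and carries no targeted change of its own. Whether each sample stands for a mouse of its own is not stated, so the p-values cover only the sample-to-sample spread, which may be technical.

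MiR-126a is made from an intron of Egfl7, a gene that endothelial cells express and whose protein is secreted into the vessel wall. In mice and zebrafish its 3p arm keeps vessels intact and raises the response to VEGF by repressing Spred1 and Pik3r2, inhibitors of the kinase pathways below the VEGF receptor, and in human endothelial cells it represses the adhesion molecule VCAM1. The 5p arm supports endothelial proliferation in mice through Dlk1, an inhibitor of Notch signalling. In the kidney, endothelium lines the glomerular and peritubular capillaries, and blood platelets and haematopoietic stem cells also contain miR-126.

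The sequences show which strand and arm each value belongs to. In RefSeq (GRCm38.p6) the Mir126a hairpin lies on the plus strand at chr2:26591357-26591429, inside the span of Egfl7 at chr2:26581083-26592682. Agpat2 lies beyond that span at chr2:26593057-26604417. Mir126b lies on the minus strand at chr2:26591363-26591420, and its whole hairpin is the reverse complement of bases 7 to 64 of the Mir126a hairpin. The Mir126a hairpin is printed with the stretches complementary to the longer probe of each arm in capitals, the 5p stretch first.
Mir126a hairpin: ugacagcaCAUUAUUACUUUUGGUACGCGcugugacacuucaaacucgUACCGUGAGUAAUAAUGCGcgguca

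By name, 3 of the 4 mature forms matched the RefSeq table, all but miR-126a-5p. The seed, bases 2 to 8, which mainly sets the targets of a miRNA, is in capitals.
mmu-miR-126a-3p: uCGUACCGugaguaauaaugcg
mmu-miR-126b-5p: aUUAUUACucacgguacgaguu
mmu-miR-126b-3p: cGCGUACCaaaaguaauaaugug

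These 3 seeds differ from each other, and 0 other mature miRNAs among the 1679 names of the table share any of them. MiR-126b-5p is complementary to miR-126a-3p over a run of 19 bases, whereas miR-126b-3p shares a run of 10 bases with miR-126a-3p in the same sense. The array reads the forms with the following probes, in which the capital marks the base that the shorter probe of the pair lacks.
miR-126a-3p probe of 18 bases: cgcattattactcacggt
miR-126a-3p probe of 19 bases: cgcattattactcacggtA
miR-126a-5p probe of 20 bases: cgcgtaccaaaagtaataat
miR-126a-5p probe of 21 bases: cgcgtaccaaaagtaataatG
miR-126b-5p probe of 16 bases: aactcgtaccgtgagT
miR-126b-3p probe of 21 bases: cacattattacttttggtacG

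The miR-126a-3p probes are complementary to bases 5 to 22 and 4 to 22 of the 22 bases of the miRNA, so they read its 3' end and the later bases of the seed. The longer miR-126b-3p probe pairs with miR-126a-3p over a run of 10 bases and the longer miR-126b-5p probe over a run of 4. In the other direction, the longer miR-126a-3p probe pairs with miR-126b-3p over 10 bases and with miR-126b-5p over 4. For the longer miR-126a-5p probe these runs were 4 and 9. Whether the miR-126a probes exclude miR-126b was not tested.

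Across the series, the signal of the arrays differed between the groups before scaling. The 75th percentile of signal, taken over 451 probes that every array measured, ran from 368.8 to 446.2 in Akita samples and from 495.4 to 520.0 in control samples, with Akita replicate 4 lowest, and each array was divided by it. On the slide, row 2 held the Akita arrays and row 1 the control arrays, so the row cannot be told apart from the group. Between 274 and 298 miRNAs per Akita array and between 295 and 327 per control array were above background. All 6 listed miRNAs of kidney epithelium, such as miR-192-5p and miR-30a-5p, were above background on all 8 arrays, and of the 5 listed miRNAs of other organs, 4 were above background on none, while miR-122-5p of the liver was above it on 5. Fewer cells of a type and less RNA per cell cannot be told apart in whole tissue.

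MiR-126a-3p, the arm known from the endothelial targets named above, was bright in every sample. Its scaled signal, the sum of both probes after division by the percentile, was 5207, 4904, 5206 and 6266 in the Akita samples and 4600, 4936, 5033 and 4967 in the control samples. The highest value was that of Akita replicate 4, the lowest that of control replicate 1, and the groups overlapped, since Akita replicate 2 lay below 3 of the 4 control samples. Of the 285 tested miRNAs, 65 had groups that did not overlap, which is 22.8%. On the log2 scale it averaged 12.39 ± 0.15 in Akita samples and 12.25 ± 0.06 in control samples (SD, n = 4 each).

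The difference of miR-126a-3p was not past the threshold. The log2 fold change, Akita minus control, was 0.14 ± 0.09 SE, a ratio of 1.10 with a 95% interval from 0.96 to 1.26, and limma's adjusted p over the 285 tested miRNAs was 0.283. In the same fit 42 of the 285 miRNAs were called at an adjusted p under 0.05, which is 14.7%, with 24 higher (8.42%) and 18 lower (6.32%). Over all 285 the median log2 fold change was 0.06. Without Akita replicate 4 the log2 fold change of miR-126a-3p was 0.06 (adjusted p = 0.521).

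MiR-126a-5p, the partner arm, had the same order of arrays at the top and the bottom. Its scaled signal was 176.0, 165.1, 175.8 and 202.3 in the Akita samples and 152.9, 174.4, 167.8 and 163.4 in the control samples. Akita replicate 4 was again highest and control replicate 1 lowest, and the groups overlapped. The log2 values averaged 7.49 ± 0.12 in Akita samples and 7.36 ± 0.08 in control samples (SD, n = 4 each). The log2 fold change was 0.12 ± 0.08 SE, a ratio of 1.09 with a 95% interval from 0.96 to 1.24 (limma, adjusted p = 0.300). Without Akita replicate 4 it was 0.07 (adjusted p = 0.546). For neither arm does this p show that the samples had equal amounts, and the intervals hold changes of up to the bounds given.

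**Figure D1:**
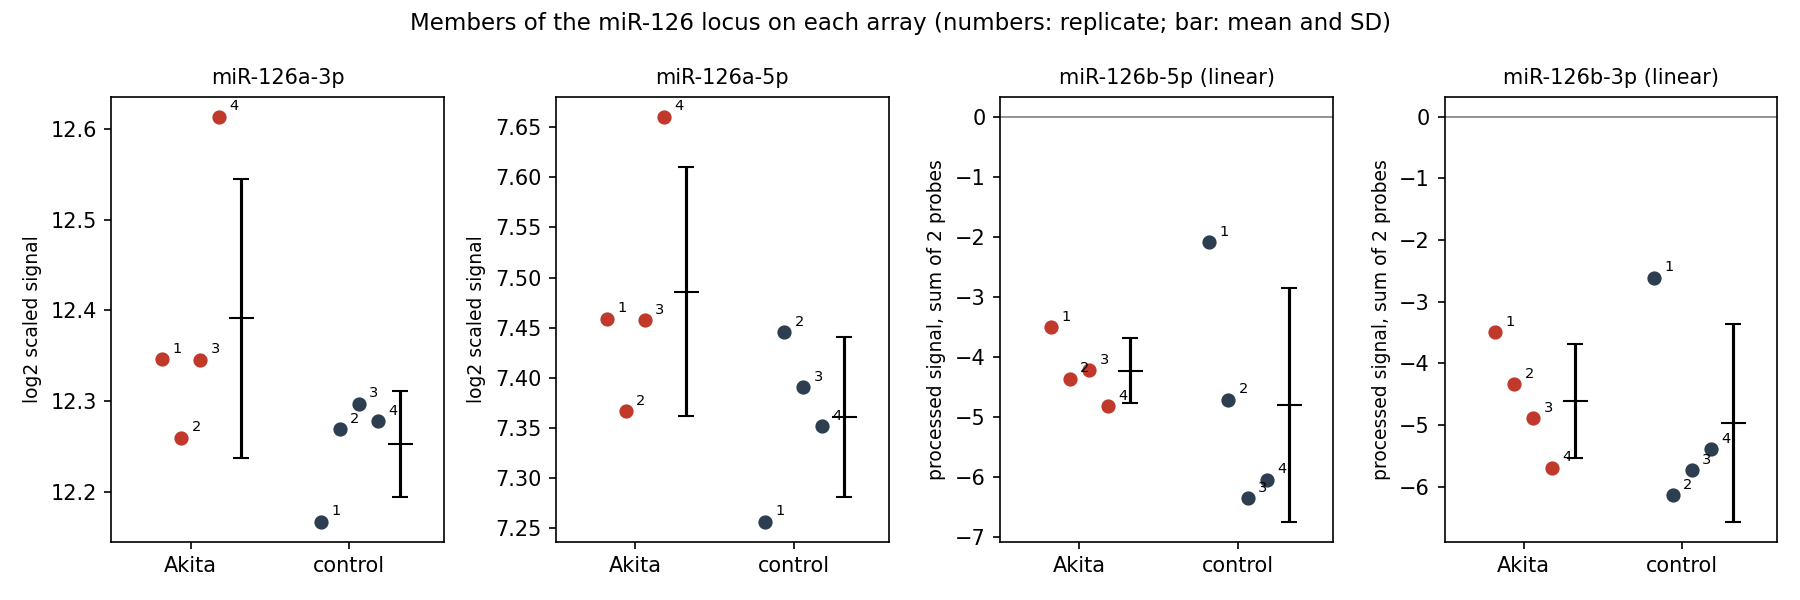
Each point is 1 array, numbered by replicate, with Akita left of control; the first 2 panels give log2 scaled signals and the last 2 the processed signal on a linear scale, and bars show mean and SD (n = 4). Akita replicate 4 stands highest for both arms of miR-126a, and both miR-126b forms lie below 0 on all 8 arrays.

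Neither form of miR-126b, the antisense miRNA, was detected. The processed signal of miR-126b-5p, summed over its probes, lay between -4.82 and -3.51 in Akita samples and between -6.36 and -2.08 in control samples. That of miR-126b-3p lay between -5.69 and -3.50 in Akita samples and between -6.14 and -2.61 in control samples. A signal below 0 is one under the fitted background, and 0 of 235 usable spots of miR-126b-5p probes and 0 of 236 of miR-126b-3p probes were well above background. The brightest single spot read 5.70 for miR-126b-5p and 8.49 for miR-126b-3p, while the 99th percentile of the negative control spots ran from 8.14 to 12.6 over the arrays. The miR-126b-3p probes, which can pair with 10 bases of miR-126a-3p, gave no signal above background on arrays where miR-126a-3p was bright. Both forms were left out of the test, and no fold is given for them.

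Each of the 4 probes of miR-126a was read alone, a step added after the data were seen. The miR-126a-3p probe of 18 bases averaged 2374 ± 264 scaled units in Akita samples and 2139 ± 78.5 in control samples (SD, n = 4 each), a log2 fold change of 0.15 ± 0.08 SE, and the probe of 19 bases gave 0.13 ± 0.09 SE. The miR-126a-5p probe of 21 bases gave 0.11 ± 0.09 SE. All 3 had adjusted p-values from 0.273 to 0.430 in a limma fit over 451 probes. Like the sums, these 3 probes were higher in Akita samples on average in this scaling, and none was called.

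The dimmest of the 4 probes was not called either. The miR-126a-5p probe of 20 bases, which lacks the last G of the longer one, read 35.07, 35.49, 35.31 and 37.58 scaled units in Akita samples and 31.22, 32.11, 31.92 and 29.66 in control samples, so that the groups did not overlap, as for 90 of the 451 probes, which is 20%. Its log2 fold change was 0.20 ± 0.06 SE (limma, unadjusted p = 0.00927, adjusted p = 0.0675 over the 451 probes), short of the threshold. Before scaling the same probe read 33.74, 33.3, 32.96 and 29.88 in Akita samples and 33.35, 34.85, 34.98 and 33.26 in control samples, with overlap, so the groups separated only after division by the percentile. Its 15 spots on 1 array varied by a coefficient of variation from 11.6% to 17.6%, compared with 2.61% to 3.97% for the miR-126a-3p probe of 18 bases.

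Single spots of the miR-126a-3p probe of 19 bases varied within an array by 2.55% to 4.82%. Between arrays, the scaled sum of the arm varied by 11.1% over the Akita samples and by 3.97% over the control samples. Each such value sums the spot means of both probes and so cannot be set against single spots. The larger Akita value came with replicate 4.

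Before scaling, both arms were dimmer on average on the Akita arrays. The processed sum of miR-126a-3p was 5011, 4602, 4860 and 4982 in Akita samples and 4913, 5358, 5515 and 5570 in control samples, a mean of 4864 ± 187 against 5339 ± 298 (SD, n = 4 each). Akita replicate 4, highest after scaling, lay within its group here, and it had the lowest percentile of all arrays. Control replicate 1 was the lowest control sample on both scales. The processed sum of miR-126a-5p was 162.3 ± 6.05 in Akita samples and 179.9 ± 11.4 in control samples.

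**Figure D2:**
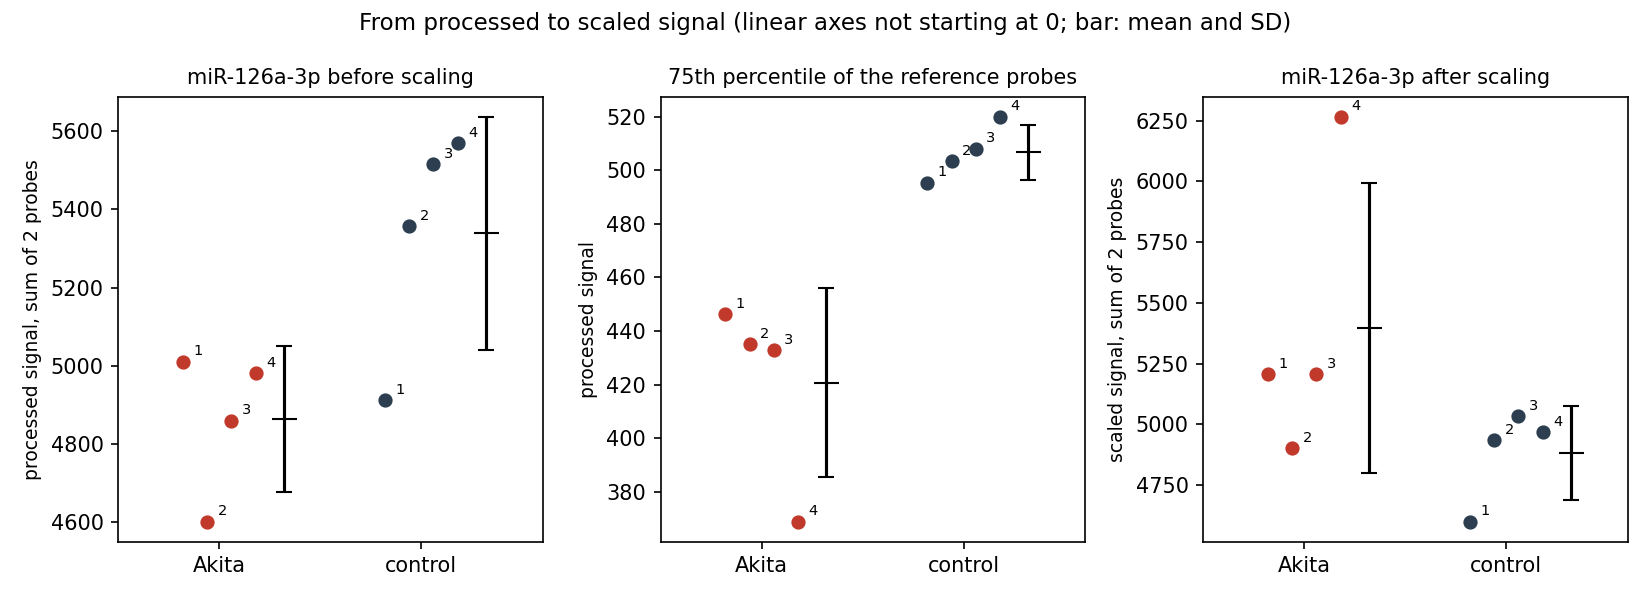
The panels show, per array, the processed signal of miR-126a-3p, the 75th percentile of the reference probes and the scaled signal, with Akita left of control, replicate numbers beside the points and mean and SD as bars (n = 4; axes do not start at 0). The percentile of the 4 Akita arrays, 368.8 to 446.2, lies below that of the 4 control arrays, and Akita replicate 4 moves to the top after division by it.

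The direction of both arms depended on what the arrays were scaled to. Without scaling the log2 fold change was -0.13 for miR-126a-3p (adjusted p = 0.124) and -0.15 for miR-126a-5p (adjusted p = 0.107). Scaled to the labelling spike-ins, synthetic RNAs added before labelling, miR-126a-3p stood at -0.011 (adjusted p = 0.964) and miR-126a-5p at -0.024 (adjusted p = 0.943). When the percentile was taken over all probes, both arms were higher in Akita samples, at 0.23 and 0.22. Neither arm was called in any of 28 alternatives.

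The median of all tested miRNAs moved along with them: it was -0.21 unscaled, -0.09 relative to the spike-ins and 0.16 where the percentile covered all probes. These settings multiply each array by 1 factor, so the distance of miR-126a from the median is the same in all of them by construction, 0.08 for the 3p arm and 0.06 for the 5p arm. The normexp background correction is not such a factor, and it added an offset of 50 to every spot before scaling. This offset counts for more in dim miRNAs, and its effect was not tested apart from the correction. With normexp the distance was -0.02 for miR-126a-3p and 0.02 for miR-126a-5p. Without Akita replicate 4, in the setting reported, it was 0.03 and 0.04. Other settings gave larger distances: 0.11 and 0.09 without Akita replicate 2, and 0.14 and 0.12 with the floor raised 4 times, where the median was 0. The counts of calls split as 24 higher and 18 lower in the setting reported, 5 and 104 unscaled, 3 and 10 relative to the spike-ins, 10 and 4 where the percentile covered all probes, and 81 and 8 after normexp background correction. Quantile normalization gave 35 and 25, and 16 and 20 were called from the authors' deposited values.

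**Figure D3:**
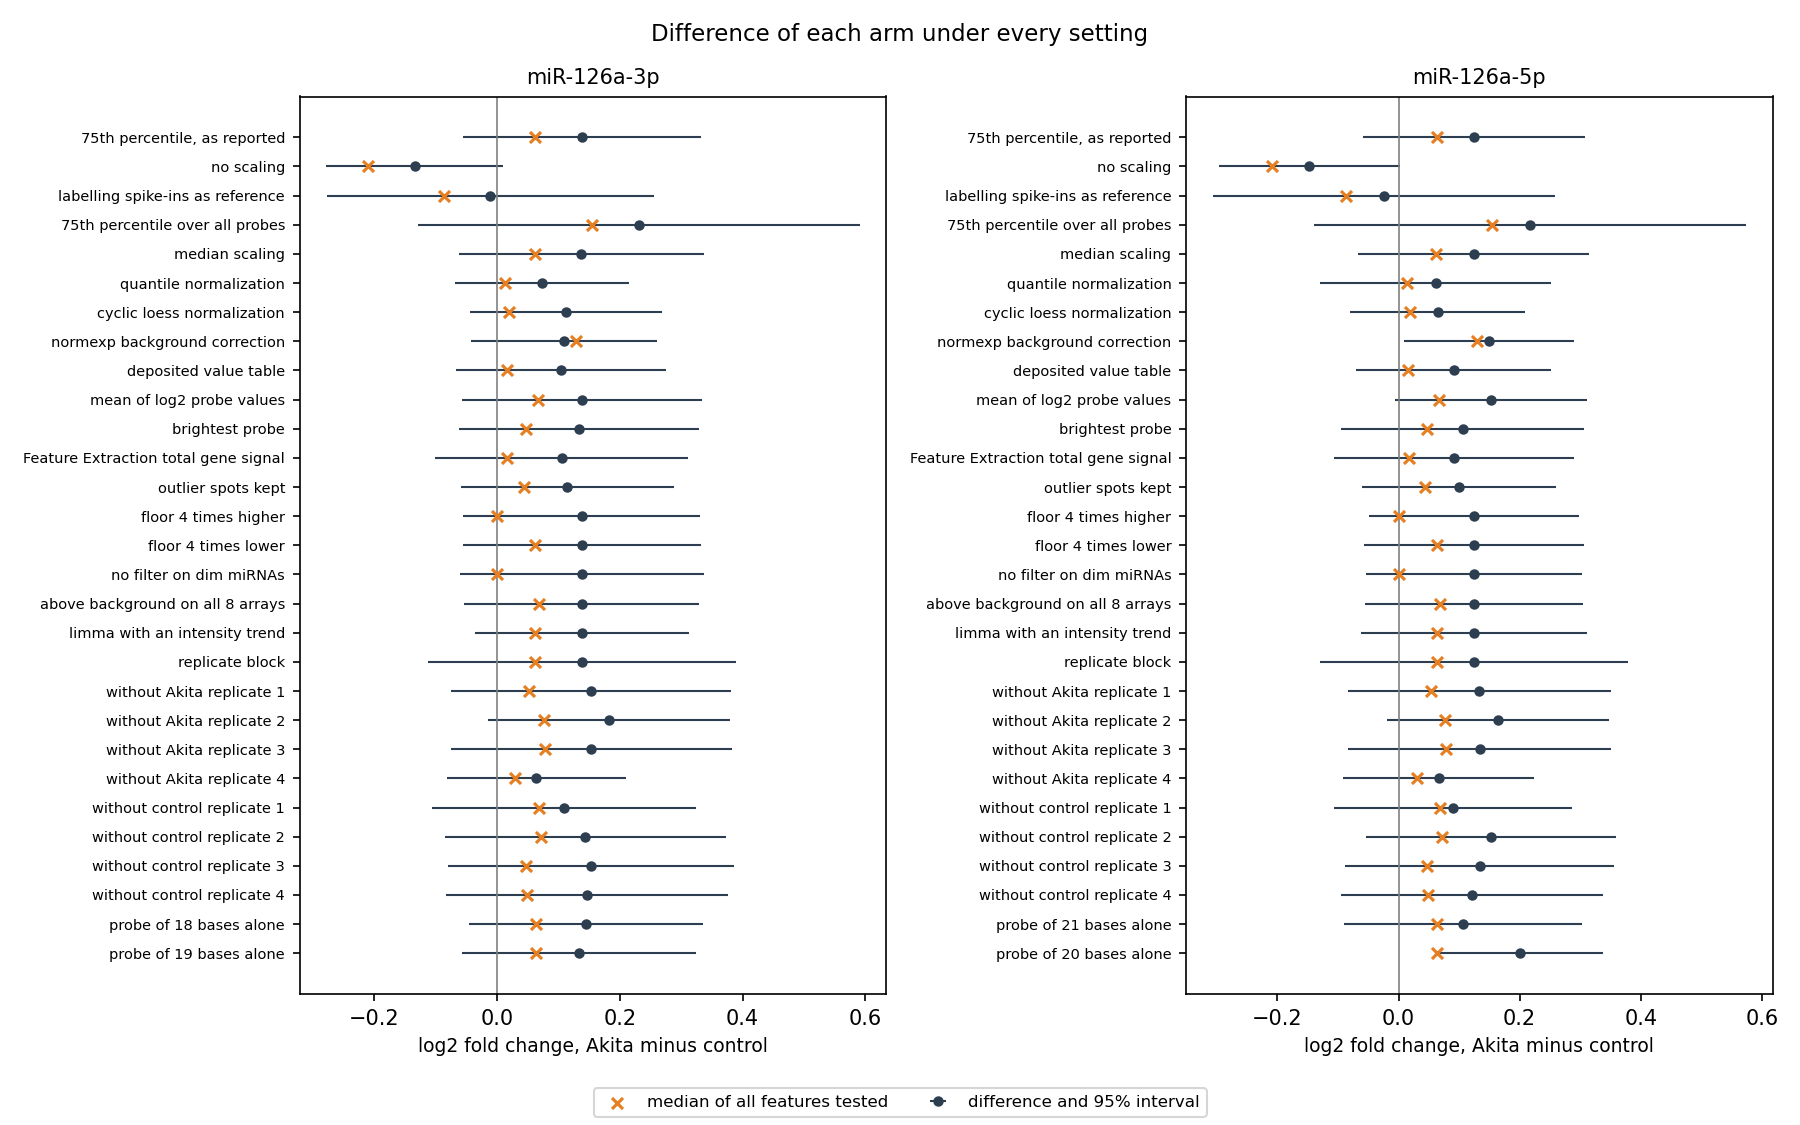
For each setting, points give the log2 fold change, Akita minus control, of miR-126a-3p (left) and miR-126a-5p (right) with 95% intervals, and crosses the median of all miRNAs or probes tested in that setting. Most intervals reach across 0, and both the points and the crosses are negative when no scaling or the labelling spike-ins were used.

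The balance of the arms did not differ between the groups beyond its spread. The log2 signal of the 5p arm minus that of the 3p arm, in which the scaling of an array cancels, was -4.89, -4.89, -4.89 and -4.95 in Akita samples and -4.91, -4.82, -4.91 and -4.93 in control samples. Akita replicate 4 had the lowest value and control replicate 2 the highest, and the groups overlapped. The level of this difference also holds the unequal response of the probes, so it is no ratio of molecules. The arm difference averaged -4.91 ± 0.03 in Akita samples and -4.89 ± 0.05 in control samples (SD, n = 4 each).

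The same arm difference was fitted for all 24 hairpins with both arms tested. For miR-126a, Akita minus control was -0.014 ± 0.038 SE, with a 95% interval from -0.10 to 0.07 and limma's adjusted p = 0.801. Of the 24 hairpins 2 were called, which is 8.33%, miR-652 and let-7b, chosen for naming after their values were seen. The pooled SD of the miR-126a difference, 0.040, was the third lowest of the 24, after miR-29c and miR-30e.

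**Figure D4:**
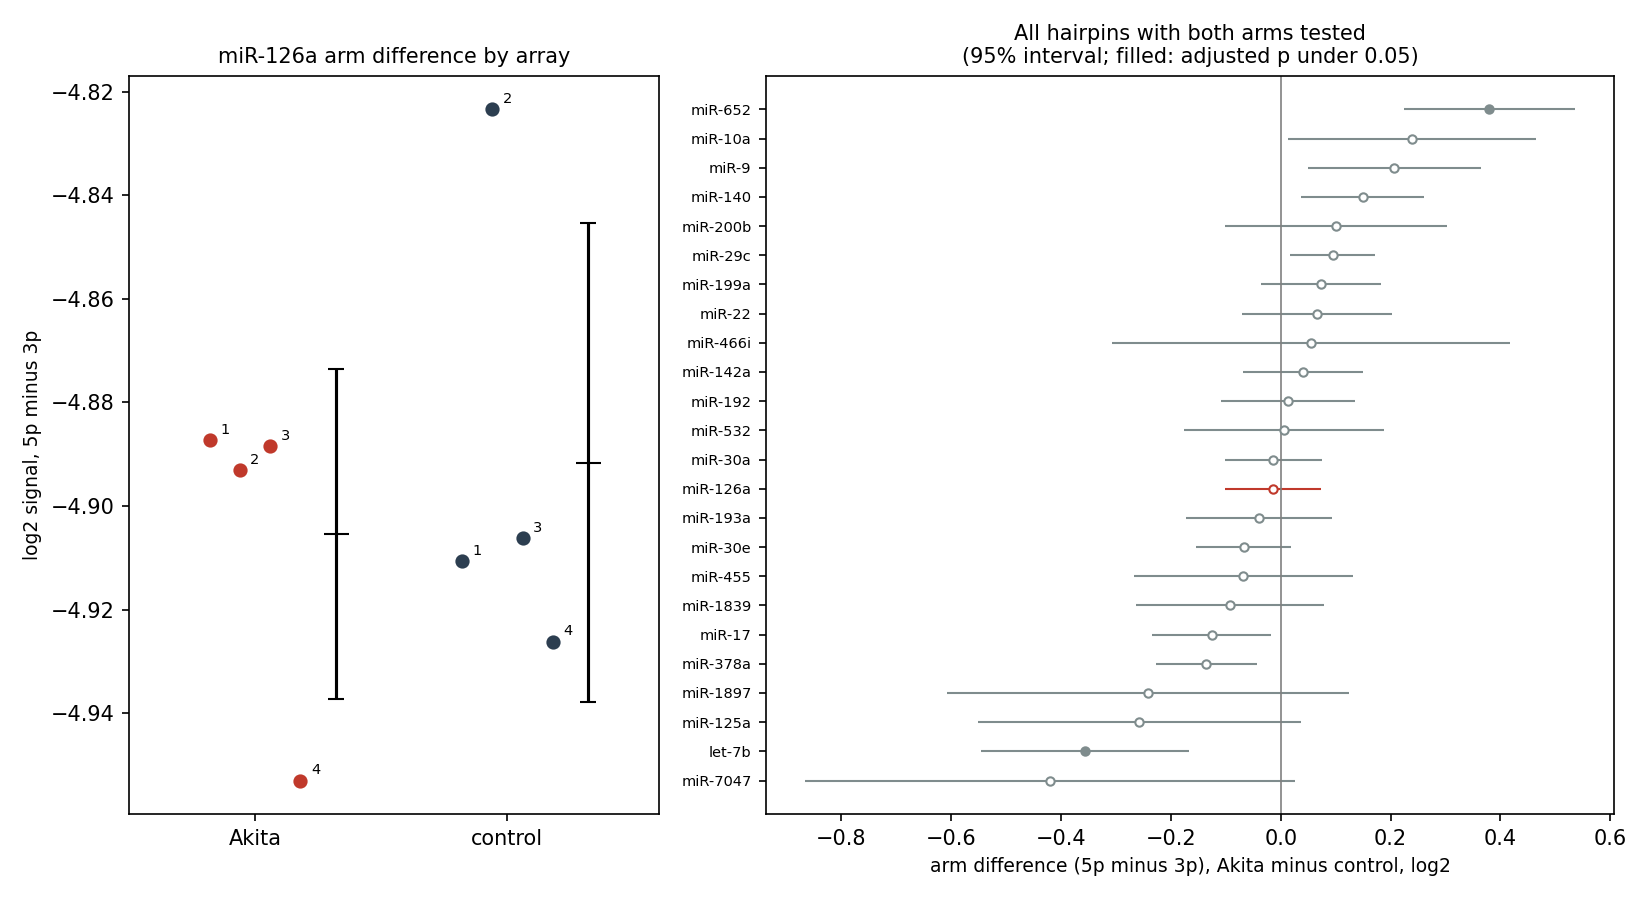
Left, the log2 signal of miR-126a-5p minus that of miR-126a-3p on each array, Akita left of control, with mean and SD (n = 4). Right, the change of the arm difference, Akita minus control, with 95% intervals for 24 hairpins, filled where the adjusted p is under 0.05; miR-126a (red) lies at -0.014, close to 0.

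The miRNAs most like miR-126a over the 8 arrays were picked by Pearson's r of the log2 scaled signals among 256 others above background on all 8 arrays. For miR-126a-3p the highest r was that of its own partner arm, miR-126a-5p, at 0.96, followed by miR-140-5p, best known from cartilage, at 0.96, miR-196b-5p of the HOX clusters at 0.96, miR-28c at 0.96 and miR-15b-5p at 0.95. For miR-126a-5p they were miR-140-5p at 0.98, miR-126a-3p at 0.96, miR-196b-5p and miR-93-5p at 0.96 each, and miR-22-5p at 0.94. The median r over all 256 was 0.44 for the 3p arm and 0.47 for the 5p arm.

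All values of an array share its scaling factor, which bears on such an r. Without Akita replicate 4 and control replicate 1, the arrays farthest from the median, r between the arms was 0.70. For the other 4 miRNAs most like miR-126a-3p it lay between 0.51 and 0.59. For those most like miR-126a-5p it was 0.82 (miR-140-5p), 0.80 (miR-22-5p), 0.77 (miR-93-5p) and 0.67 (miR-196b-5p), so 3 of these lay above the partner arm. Without scaling, r with miR-126a-3p was 0.94 for its partner arm, 0.95 for miR-15b-5p and 0.94 for miR-196b-5p. It was 0.77 for miR-28c and 0.68 for miR-140-5p. For miR-126a-5p the unscaled r was 0.97 with miR-93-5p, 0.93 with miR-196b-5p, 0.86 with miR-22-5p and 0.66 with miR-140-5p. Deviations from the group means gave 0.94 between the arms, and also 0.94 for each of the other 4 miRNAs with miR-126a-3p.

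Of the other cells of the vessel wall and the blood, some marker miRNAs moved with the groups and some did not. Of the 4 listed miRNAs of smooth muscle and pericytes, 2 were tested and none was called. MiR-143-3p had a log2 fold change of 0.0014 (95% interval -0.22 to 0.22) and miR-145a-5p one of -0.03 (-0.22 to 0.16), and the passenger arms miR-143-5p and miR-145a-3p were above background on 0 arrays. The summed scaled signal of this list ran from 976.5 to 1221 in Akita samples and from 1023 to 1241 in control samples.

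Of the 5 listed leukocyte miRNAs, all tested, 4 were called lower in Akita samples, beside 6.32% of all tested miRNAs. The fifth, miR-150-5p of lymphocytes, had a log2 fold change of -0.35 (95% interval -0.64 to -0.07, limma, adjusted p = 0.0896). The summed signal of the list ran from 690.5 to 832.3 in Akita samples and from 1010 to 1166 in control samples. Among the called ones, miR-223-3p, which platelets contain as well as neutrophils, had a log2 fold change of -0.44 (limma, adjusted p = 0.0342). The erythrocyte list, of which only miR-451a was tested and not called, ran from 633.3 to 849.3 in Akita samples and from 97.1 to 1313 in control samples, while miR-144-5p and miR-486a-5p were above background on 0 arrays. The part of blood cells in the miR-126a signal was not tested.

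MiR-126a was set among other miRNAs with known roles in endothelium and vessel growth, a list chosen with earlier results of these data known. Of its 36 members, 28 were tested and 10 were called, 4 higher and 6 lower, beside 14.7% of all tested miRNAs (8.42% higher and 6.32% lower). The median log2 fold change of the 28 was -0.05, beside 0.06 for all tested miRNAs. Both arms of miR-126a were among the tested members that were not called. Several members are not specific to endothelium: immune cells contain much miR-146a-5p and miR-155-5p, and miR-210-3p is induced by hypoxia in most cells.

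Higher in Akita samples were miR-34a-5p, a p53-induced miRNA tied to endothelial senescence, at a log2 fold change of 1.31 ± 0.09 SE, and miR-210-3p, which promotes tube formation of endothelial cells under hypoxia, at 0.91 ± 0.16 SE. MiR-221-3p stood at 0.33 ± 0.08 SE and miR-222-3p at 0.28 ± 0.07 SE, a pair that represses Kit and slows endothelial migration. Limma's adjusted p for these 4 was 5.44e-05, 0.00722, 0.0336 and 0.0360. The calls of miR-221-3p and miR-222-3p were made under 12 of 26 alternatives each and in 2 of the 8 fits without 1 array. Without scaling they had log2 fold changes of 0.06 and 0.01. MiR-34a-5p was called under all 26 alternatives and miR-210-3p under 23, the exceptions being the spike-ins (0.76, adjusted p = 0.116), the floor raised 4 times (0.37, adjusted p = 0.338) and no filter (adjusted p = 0.252). With normexp miR-210-3p was called at a log2 fold change of 0.51.

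Lower in Akita samples were miR-146a-5p, which dampens NF-kappaB signalling in endothelial cells, at -1.26 ± 0.15 SE, and miR-218-5p, which acts on Slit and Robo signalling in vessels, at -0.63 ± 0.09 SE. MiR-155-5p, a repressor of endothelial nitric oxide synthase, stood at -0.61 ± 0.06 SE. MiR-92a-3p, which restrains vessel growth, had a log2 fold change of -0.36 ± 0.06 SE, miR-181b-5p, an inhibitor of NF-kappaB signalling in endothelium, one of -0.35 ± 0.09 SE, and miR-19b-3p one of -0.28 ± 0.07 SE. Their adjusted p-values in limma were 0.000735, 0.00423, 0.000668, 0.00675, 0.0342 and 0.0342. The calls of miR-181b-5p and miR-19b-3p were made under 13 and 12 of 26 alternatives and in 2 and 1 of the 8 fits without 1 array. Both were lost relative to the spike-ins (adjusted p = 0.105 and 0.141) and when the percentile covered all probes (0.359 and 0.535). With normexp miR-181b-5p had 0.0086 and miR-155-5p -0.04, neither called. Both are dim, with log2 means of 6.38 and 6.13 in control samples, so the normexp offset of 50 per spot bears on these values. MiR-155-5p also lost its call when the percentile covered all probes (adjusted p = 0.0717) and with the raised floor, where it lay at the floor in both groups. MiR-92a-3p lost it relative to the spike-ins (adjusted p = 0.0757), when the percentile covered all probes (0.344) and with the replicate block (0.0698). MiR-218-5p lost it when the percentile covered all probes (0.0765) and with no filter (0.079), and miR-146a-5p with no filter alone (0.0679).

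**Figure D5:**
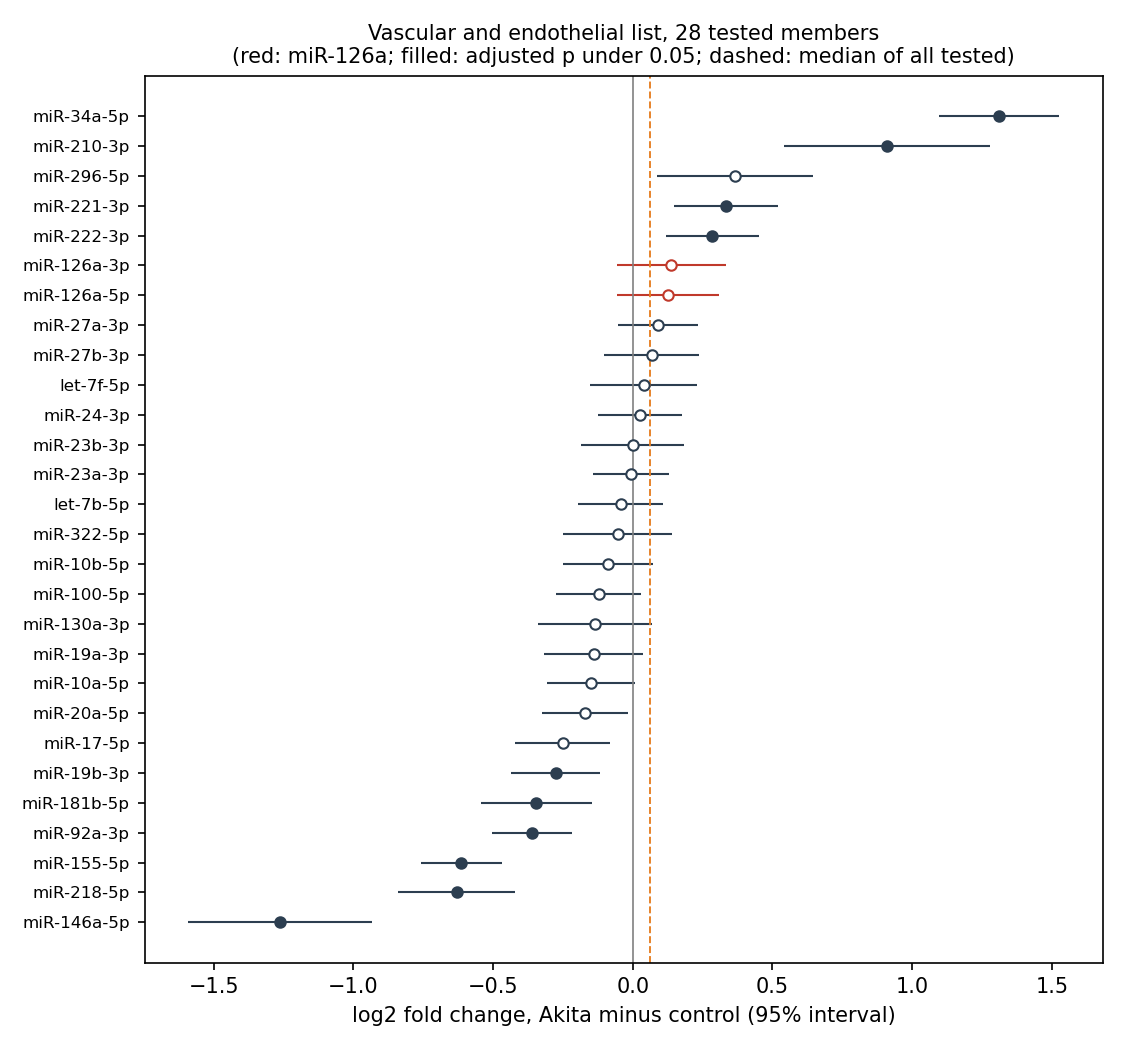
Points give the log2 fold change, Akita minus control, with 95% intervals for the 28 tested miRNAs of the vascular and endothelial list, filled where the adjusted p is under 0.05; the dashed line is the median of all tested miRNAs, 0.06. Both arms of miR-126a (red) lie at 0.14 and 0.12 with open points, between 4 called miRNAs above and 6 below.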

How the data were processed

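Total RNA of 8 kidney samples (100 ng each, Cy3) was hybridised to Agilent mouse miRNA arrays, 8 on 1 slide. Per the file headers and the submitters' processing notes, the authors extracted the deposited spot intensity with Agilent Feature Extraction 12.0.3.1, which subtracts a fitted surface and applies no normalization between arrays, so intensity can be negative. The deposited value table holds a linear ratio per miRNA, normalized by the authors in a way not given in the sources used here, and served as an alternative.

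Control spots and spots flagged as outliers (2.03% to 3.02%) were left out, spots averaged per probe, and each array scaled to its 75th percentile. The percentile used 451 probes with a share of 0.5 or more of spots well above background on every array, and values were multiplied by the mean of the 8 percentiles. No spot was saturated (0). Probes were summed per miRNA, sums under 23.8 set to that floor, and log2 taken. Of 1881 miRNAs, 285 above background on all 4 arrays of a group were tested with limma 3.58.1 in R 4.3.3 (lmFit, eBayes, two-sided, Benjamini-Hochberg, 9.16 total degrees of freedom). Arm differences were fitted likewise over 24 hairpins. The scripts were tested on simulated data. The number of arrays limits the precision.

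The members, lists and alternatives were chosen with earlier results of these data known. Named miRNAs are the members, the 5 most correlated with each detected arm, the called members of the vascular list and markers beside a result. Sequences and coordinates come from RefSeq (GRCm38.p6) and probe sequences from the deposited files. Alternatives covered scaling, background correction, probe summary, outlier spots, floor, filter, the value table, an intensity trend, the replicate number as a block and each array left out. The background correction was limma's normexp with an offset of 50.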

Additional observations from a re-analysis of the deposited data

Results flagged for a closer look

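Of 52 groups of 4 arrays checked for a value far from the other 3, 5 were marked, and chance marks about 1 in 20. In Akita replicate 4 the 5p minus 3p arm difference of miR-126a was -4.953, against -4.893 to -4.887 in the other Akita samples, a gap of 0.06 on the log2 scale. Control replicate 2 had the highest summed signal of the smooth muscle and pericyte miRNAs, with a log2 of the sum of 10.28 and the other control samples between 9.998 and 10.02. Control replicate 4 had the highest labelling spike-in signal, 2035, with the other control arrays between 1709 and 1735. For miR-155-5p, replicate 4 was lowest in both groups, at 5.469 in Akita samples (others 5.524 to 5.530) and at 6.009 in control samples (others 6.159 to 6.176).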

How the results depend on the processing

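The 42 calls became 109 without scaling, 13 with the labelling spike-ins, 14 with the percentile over all probes, 64 with cyclic loess, 89 with normexp, 21 with Feature Extraction's total gene signal, 9 when the floor was raised 4 times and 6 when dim miRNAs were not filtered out, where limma warned that most residual variances were 0. The 10 calls of the vascular list became 21, 4 and 3 under the first 3 of these, 6 with the total gene signal, 4 with the higher floor and 3 with no filter. Without 1 array the calls ran from 20 to 40 and those of the list from 6 to 9. MiR-126a-3p reversed without scaling (-0.13) and with the spike-ins (-0.011), as did miR-126a-5p (-0.15 and -0.024). These settings differ from the reported one by 1 factor per array. Why the signal of the arrays differed between the groups was not tested. Over its alternatives the adjusted p ran from 0.124 to 0.964 for miR-126a-3p and from 0.0675 to 0.943 for miR-126a-5p, with no call in any. The arm difference turned to 0.040 with normexp and to 0.014 with the mean of log2 probe values, and without 1 array it ran from -0.025 to 0.0089, turning positive without Akita replicate 4 (0.0020) or control replicate 2 (0.0089). Without 1 array miR-126a-3p ran from 0.06 to 0.18 and miR-126a-5p from 0.07 to 0.16.

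No label says whether the replicate numbers pair the samples, and same-numbered arrays of both groups lay in the same slide column. Deviations of same-numbered samples correlated between -0.353 and 0.337, and 1 of 4 Akita samples correlated best with its own number. So few correlations cannot settle whether the samples are paired. With the replicate block 25 miRNAs and 5 of the list were called, and no call of miR-126a changed (adjusted p = 0.468 for the 3p arm, 0.514 for the 5p arm and 0.852 for the arm difference).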

Other observations

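In the authors' value table, both miR-126b forms carried the same ratio on each array, from 1.03 to 1.22 in Akita samples and from 0.70 to 0.97 in control samples, without overlap, although neither form was above background on any array. The same 8 values (tolerance 1e-09) stood in the table for 1437 of the 1881 miRNAs, which is 76.4%. In the scanner files, Feature Extraction's total gene signal of these 1437 miRNAs was 0.1, its lowest value, on all 8 arrays.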
